A study of Mus musculus with 11 samples.

Results

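The genes of the corticotropin releasing factor (CRF) system and of the corticosteroid receptors were followed in mPFC CRF1+ neurons, the neurons of the medial prefrontal cortex that carry the CRF receptor 1. The members were chosen by name, by their place in the pathway, with earlier results of these data known. They are 9 of the 53465 genes counted: Crh, Ucn, Crhbp, Crhr1, Crhr2, Nr3c1, Nr3c2, Fkbp5 and Hsd11b1. Of these, 7 passed the filter on low counts, and Crhr2 and Ucn did not. RNA was sequenced from GFP-positive cells sorted from single male CRF1:GFP mice aged at least 10 weeks, in which the fluorescent protein reports expression of Crhr1, with 6 naïve and 5 withdrawn mice. Withdrawn mice had inhaled ethanol vapor intermittently for 5 to 6 weeks, with injections of ethanol and pyrazole, an inhibitor of alcohol dehydrogenase, and were taken 5–8 days into abstinence. Naïve mice breathed air and received pyrazole for the same time, so pyrazole was common to both groups. Mice were assigned by their title and treatment labels, although a further label reads control for withdrawn mice 3, 4 and 5 and in the design text the sizes of the groups are swapped.

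CRF, encoded by Crh, is the peptide that starts the hormonal stress response in the hypothalamus and is also released by neurons of the cortex. It acts on CRF1, a receptor coupled to G proteins, while the related peptide urocortin (Ucn) activates both CRF1 and CRF2 (Crhr2), and the binding protein encoded by Crhbp holds these peptides away from the receptors. The stress response ends in corticosterone, which enters the brain and binds the mineralocorticoid receptor (Nr3c2) with high affinity and the glucocorticoid receptor (Nr3c1) with lower affinity. Both receptors are held ready by the Hsp90 chaperone machinery, in which Fkbp5 lowers hormone binding of the glucocorticoid receptor and is itself a classical gene induced by that receptor, and Hsd11b1 regenerates active corticosterone inside the cell.

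Between 7351567 and 22244869 counts fell on genes in each library. By these totals, before TMM normalization, 3 counts corresponded to between 0.135 and 0.408 CPM, counts scaled to a common library size. The levels given below are TMM-normalized, so this floor is approximate for them. Library sizes were normalized with the TMM method, and such a floor covers counting error alone, because reads copied by PCR do not each stand for a molecule. Reads outside annotated exons took 5.77% to 31.5% of the reads of naïve mice and 13.3% to 48.1% of those of withdrawn mice, with the highest shares in withdrawn mice 2 (39.6%) and 4 (48.1%). The label of the sorted cells was checked against 10 markers of glutamatergic neurons, whose summed level was 3120 to 4721 CPM in naïve and 2105 to 4364 CPM in withdrawn mice, with Slc17a7 above 0 in every mouse. Another sum covered 55 markers of other brain cell classes (astrocytes, oligodendrocytes and their precursors, microglia, endothelial and mural cells and fibroblasts). It was 201 to 1358 CPM in naïve and 343 to 2777 CPM in withdrawn mice. In withdrawn mouse 4 it was above the glutamatergic sum (2777 and 2105 CPM), and in every other mouse it was below. Withdrawn mouse 1 came nearest, with 2322 and 3011 CPM. Neither sum measures how pure the sorted cells were. In such bulk libraries, fewer cells of a type and less RNA per cell cannot be told apart, and p-values measure the spread between single mice.

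The sequences before the RefSeq starts of Fkbp5, Nr3c2 and Crhr1 are shown because Fkbp5 and Nr3c2 gave the smallest p-values among the members, and because Crhr1 is the gene that the reporter follows. RefSeq provided 250 bases before the start of 7 of the 9 genes on GRCm38.p6, and the windows below are written 5′ to 3′ along the strand of the gene, with each GC box (GGGCGG on either strand) in capitals. RefSeq places these starts elsewhere than the GENCODE annotation from which gene bounds were taken. The windows of Fkbp5 and Nr3c2 therefore lie inside the gene bounds given with their values.
Fkbp5, chr17:28486150-28486399, minus strand: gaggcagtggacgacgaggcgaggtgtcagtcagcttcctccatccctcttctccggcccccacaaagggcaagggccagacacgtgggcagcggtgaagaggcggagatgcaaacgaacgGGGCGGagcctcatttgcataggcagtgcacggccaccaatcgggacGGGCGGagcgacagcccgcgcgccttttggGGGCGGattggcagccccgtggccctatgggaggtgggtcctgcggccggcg
Nr3c2, chr8:76902080-76902329, plus strand: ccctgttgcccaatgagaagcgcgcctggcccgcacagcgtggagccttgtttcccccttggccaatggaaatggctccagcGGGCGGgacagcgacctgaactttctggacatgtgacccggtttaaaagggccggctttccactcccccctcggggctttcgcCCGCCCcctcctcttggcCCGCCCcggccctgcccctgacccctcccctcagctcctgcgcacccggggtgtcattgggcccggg
Crhr1, chr11:104132531-104132780, plus strand: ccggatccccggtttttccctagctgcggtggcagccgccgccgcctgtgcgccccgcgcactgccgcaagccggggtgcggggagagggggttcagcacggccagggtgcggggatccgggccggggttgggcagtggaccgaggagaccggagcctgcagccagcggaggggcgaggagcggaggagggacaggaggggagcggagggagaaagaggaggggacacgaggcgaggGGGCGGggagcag
The windows of Fkbp5 and Nr3c2 each held 3 GC boxes and that of Crhr1 held 1, while 32.7% of 32851 windows of the same length held at least 1. GC content was 68% for Fkbp5, 68.4% for Nr3c2 and 74.8% for Crhr1. The letters AGAACA followed by any 3 bases and TGTTCT, the palindromic form of the element bound by the corticosteroid receptors, were searched on both strands. They were in none of the 7 member windows and in 0.00913% of all windows, which says only that these letters are not in these 250 bases. The right arm of that element, TGTTCT, was found on either strand in the window of Ucn alone among the members, and in 16.1% of all windows. The window of Ucn also held TGACGTCA, the full cyclic AMP response element, which 1.55% of all windows held.

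Levels can be compared between genes only per length, as CPM per kilobase of annotated exon. On that scale Crhr1 was the highest member in naïve mice at 37.7 ± 8.73 (SD, n = 6), at the 90.8 percentile of the tested genes. Since a reporter of Crhr1 gated the cells, this is not a finding. Without libraries of unsorted cells it does not check the sort either. Nr3c1 followed at 13.3 ± 3.17, and Crhr1 was above Nr3c1 in 6 of 6 naïve mice. Crh (8.40 ± 10.3) and Crhbp (7.24 ± 8.14) came next with a spread as large as their means, and their order was not separated, since Crh was above Crhbp in 3 of 6 naïve mice. Fkbp5 (3.64 ± 1.38) lay above Nr3c2 (1.97 ± 0.738) in 5 of 6 naïve mice, Nr3c2 above Hsd11b1 (1.49 ± 1.05) in only 3 of 6, and Crhr2 (0.322 ± 0.524) and Ucn (0.0908 ± 0.222) were at the bottom. In withdrawn mice Crhr1 was again the highest at 36.3 ± 13.7 CPM per kilobase (SD, n = 5), and above Fkbp5 in 4 of 5 mice. Fkbp5 stood second by its mean of 16.3 ± 14.4 but exceeded Nr3c1 (12.6 ± 4.29) in only 2 of 5 mice, so the order of this pair was not separated. Nr3c2 at 5.03 ± 2.97 was above Hsd11b1 (1.32 ± 0.887) in 5 of 5 withdrawn mice.

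**Figure D1:**
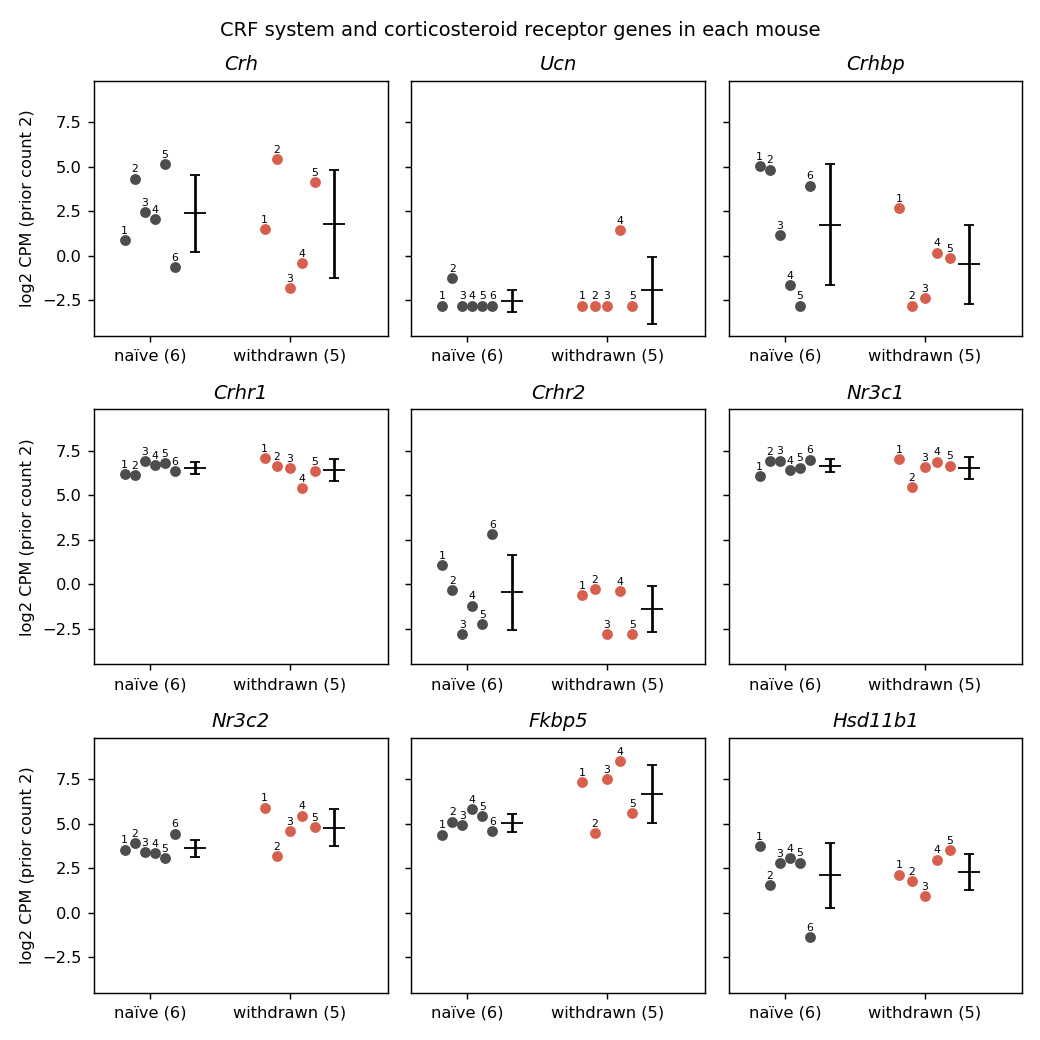
Level of each of the 9 members in each mouse as log2 CPM with a prior count of 2 (vertical axis), for 6 naïve and 5 withdrawn mice. Points are single mice with their numbers and bars are group means with the SD. Crhr1 and Nr3c1 vary little between mice, Crh and Crhbp vary widely within both groups, and Fkbp5 and Nr3c2 reach higher levels in some or most withdrawn mice.

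Of the 2 ligand genes, Crh (ENSMUSG00000049796, chromosome 3 from 19693401 to 19695396 of GRCm38, minus strand) was counted in all 11 mice, with 3 to 516 counts. Naïve mice 1 to 6 had 1.72, 19.99, 5.34, 4.02, 34.94 and 0.49 CPM, and withdrawn mice 1 to 5 had 2.67, 42.76, 0.14, 0.61 and 17.47 CPM. High and low mice occurred in both groups, which overlapped over nearly their whole range. The mean was 11.1 ± 13.6 CPM in naïve mice (SD, n = 6) against 12.7 ± 18.2 CPM after withdrawal (SD, n = 5). The log2 fold change of withdrawn over naïve mice was 0.19 (standard error 1.20, 95% interval −2.38 to 2.77), with an edgeR adjusted p = 0.986 (quasi-likelihood test, adjusted over 17093 genes). The interval spans large changes in both directions, so the data do not show that Crh was equal in the groups. Its spread between naïve mice, 123.1% of the mean, was at the 93.7 percentile of the tested genes.

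Ucn (ENSMUSG00000038676, chromosome 5 from 31138063 to 31138829, minus strand) was counted in only 2 of 11 mice. Naïve mouse 2 had 5 counts (0.27 CPM) and withdrawn mouse 4 had 21 counts (2.58 CPM), and the other mice had no count, which allows up to 3 counts each. The difference in mean log2 CPM, withdrawn minus naïve, was 0.59 (two-sided exact permutation test, p = 0.727), and it rested on withdrawn mouse 4, without which it was −0.26. Ucn2, Ucn3 and the other genes of the hormonal axis are given with the pathway lists.

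Crhbp (ENSMUSG00000021680, chromosome 13 from 95431371 to 95444924, minus strand), the gene for the CRF binding protein, had 32.44, 28.39, 2.06, 0.17, 0 and 15.13 CPM in naïve mice 1 to 6. Withdrawn mice 1 to 5 had 6.27, 0, 0.05, 0.98 and 0.78 CPM. Naïve mice 1, 2 and 6 were above every withdrawn mouse, while naïve mice 3, 4 and 5 lay within the withdrawn range. The mean was 13.0 ± 14.6 CPM (SD, n = 6) against 1.62 ± 2.64 CPM (SD, n = 5), and the log2 fold change was −2.997 (standard error 1.56, 95% interval −6.35 to 0.35), with an edgeR adjusted p = 0.755 and 0.412 from DESeq2. Without withdrawn mouse 1, the highest of its group, the log2 fold change was −4.88, and with the replicate block it was −1.94. In the cortex Crhbp is known from interneurons, many of which contain somatostatin. Sst, chosen from the 10 GABAergic markers after its values were seen, was high in the same 3 naïve mice. Sst had 699.2, 472.9 and 288.8 CPM in naïve mice 1, 2 and 6, and at most 23.3 CPM in the other naïve mice. Among withdrawn mice Sst reached 32.6 CPM in mouse 4 and was at most 0.0707 CPM in the rest, including mouse 1, which had the most Crhbp of its group. The GABAergic markers as a whole did not go the same way, since 7 of the 10 had a higher and 3 (Sst, Npy and Lhx6) a lower log2 fold change, with a median of 0.36. Gad1, which encodes an enzyme of GABA synthesis, had 33.3 to 149.99 CPM in naïve and 11.2 to 324.8 CPM in withdrawn mice. The sum of the 10 markers covered 111 to 1161 CPM in naïve and 39.6 to 960 CPM in withdrawn mice, with Sst as its largest part in naïve mice 1, 2 and 6, and the part of such cells in the difference of Crhbp was not tested. With the non-neuronal marker level as a covariate, an alternative chosen after seeing the data, DESeq2 gave a log2 fold change of −5.28 at an adjusted p = 0.0185, past the threshold, while edgeR with the same covariate gave −5.40 with an adjusted p = 0.672.

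Crhr1 (ENSMUSG00000018634, chromosome 11 from 104132855 to 104175523, plus strand) encodes the receptor by which the cells were sorted. It had 71.85, 69.08, 118.77, 103.72, 111.95 and 80.70 CPM in naïve mice 1 to 6 and 135.56, 98.28, 89.92, 42.17 and 80.79 CPM in withdrawn mice 1 to 5. The groups overlapped, and withdrawn mice 1 and 4 held the highest and the lowest value of all. The log2 fold change was −0.05 (standard error 0.26, 95% interval −0.61 to 0.50), with an edgeR adjusted p = 0.984. Since a reporter of Crhr1 gated these cells, its level cannot show how Crhr1 changed in the tissue.

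Crhr2 (ENSMUSG00000003476, chromosome 6 from 55090049 to 55133016, minus strand), the gene of the second CRF receptor, lay near the floor. Naïve mice 1 to 6 had 18, 12, 0, 5, 1 and 112 counts and withdrawn mice 1 to 5 had 7, 6, 0, 5 and 0 counts. Naïve mouse 6 was the highest at 6.92 CPM, and the highest withdrawn mouse had 0.672 CPM. The difference in mean log2 CPM was −0.94 (two-sided exact permutation test, p = 0.439), smaller than the spread between mice. It was −0.28 without naïve mouse 6, −1.41 without naïve mouse 3, and −0.01 without the 3 mice with conflicting labels. Crhr2 and Ucn were the 2 members tested in this way, and their p-values were not adjusted.

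Nr3c1 (ENSMUSG00000024431, chromosome 18 from 39410545 to 39519421, minus strand), the glucocorticoid receptor gene, was well expressed in every mouse. It had 67.02, 120.31, 122.43, 85.26, 93.25 and 127.20 CPM in naïve mice 1 to 6 and 130.09, 44.10, 93.47, 117.54 and 100.67 CPM in withdrawn mice 1 to 5. The groups overlapped widely, with withdrawn mouse 1 just above the highest naïve mouse and withdrawn mouse 2 the lowest of all 11. The mean was 102.6 ± 24.4 CPM (SD, n = 6) against 97.2 ± 32.9 CPM (SD, n = 5). The log2 fold change was −0.08 (standard error 0.26, 95% interval −0.63 to 0.47), with an edgeR adjusted p = 0.974.

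Nr3c2 (ENSMUSG00000031618, chromosome 8 from 76899442 to 77245012, plus strand), the mineralocorticoid receptor gene, had 11.49, 14.83, 10.31, 10.13, 8.26 and 21.43 CPM in naïve mice 1 to 6. Withdrawn mice 1 to 5 had 59.14, 8.84, 24.01, 43.28 and 27.52 CPM. Thus 4 of 5 withdrawn mice were above all naïve mice, and withdrawn mouse 2 was lower than 5 of the 6. The mean was 12.7 ± 4.78 CPM (SD, n = 6) against 32.6 ± 19.2 CPM (SD, n = 5), a ratio of 2.56. The log2 fold change was 1.35 (standard error 0.43, 95% interval 0.43 to 2.27), and the adjusted p = 0.367 from edgeR and 0.0770 from DESeq2 missed the threshold of 0.05. Without withdrawn mouse 2 the log2 fold change was 1.57 with an adjusted p = 0.0507 from edgeR, the smallest with 1 mouse left out. Without withdrawn mouse 1 edgeR gave 1.00 with an adjusted p = 0.949, and without withdrawn mouse 4 it gave 1.22 with 0.815. Without the 3 mice with conflicting labels it gave 1.39 with an adjusted p = 0.789. Of its 6474 exonic bases, 247 are shared with Gm10649 on the opposite strand, which had at most 6 counts in a mouse.

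Fkbp5 (ENSMUSG00000024222, chromosome 17 from 28399094 to 28517527, minus strand), the Hsp90 co-chaperone, had 20.73, 34.38, 30.00, 56.14, 42.19 and 23.53 CPM in naïve mice 1 to 6. Withdrawn mice 1 to 5 had 158.03, 21.60, 179.80, 364.30 and 47.19 CPM. Withdrawn mice 1, 3 and 4 were far above all naïve mice, whereas withdrawn mice 2 and 5 lay inside the naïve range. The mean was 34.5 ± 13.1 CPM (SD, n = 6) against 154.2 ± 135.9 CPM (SD, n = 5), a ratio of 4.47. The log2 fold change was 2.16 (standard error 0.55, 95% interval 0.98 to 3.33), which was rank 122 by p among 17093 genes, with an edgeR adjusted p = 0.214. DESeq2 gave 2.21 (standard error 0.58) with an adjusted p = 0.0140, so the call depended on the test. In DESeq2 the call was lost with the share of reads outside exons as a covariate (1.94, adjusted p = 0.120) and with the non-neuronal covariate (1.24, adjusted p = 0.441), both added after seeing the data. It also depended on 1 library, since without withdrawn mouse 2 edgeR gave 2.41 with an adjusted p = 0.0181. Without withdrawn mice 3, 4 and 5, whose labels conflict and 2 of which had the highest levels, edgeR gave 1.35 with an adjusted p = 0.789.

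Hsd11b1 (ENSMUSG00000016194, chromosome 1 from 193221634 to 193264075, minus strand), which encodes the enzyme that turns inactive 11-dehydrocorticosterone into corticosterone, was low. It had 13.10, 2.80, 6.75, 8.27, 6.84 and 0.25 CPM in naïve mice 1 to 6 and 4.25, 3.25, 1.78, 7.75 and 11.11 CPM in withdrawn mice 1 to 5. All withdrawn mice lay within the naïve range, and the log2 fold change was −0.17 (standard error 0.77, 95% interval −1.83 to 1.49), with an edgeR adjusted p = 0.984.

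**Figure D2:**
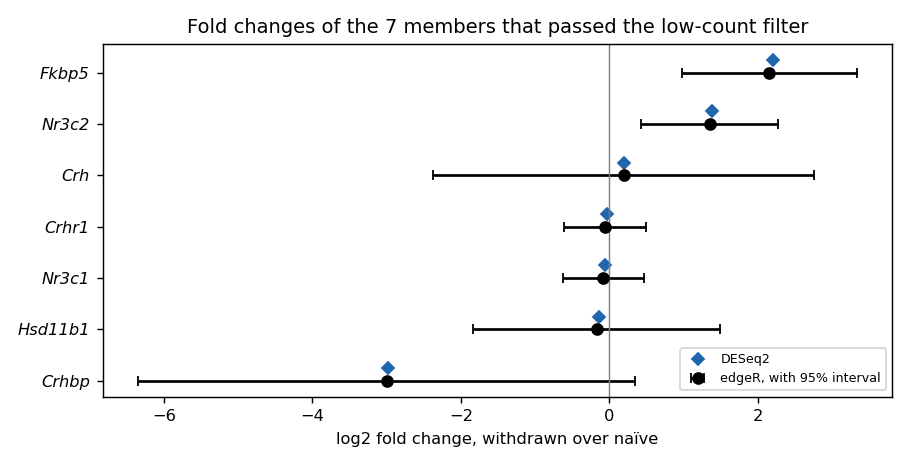
Log2 fold change of withdrawn over naïve mice (horizontal axis) with its 95% interval for the 7 members that passed the low-count filter, by edgeR. The intervals of Fkbp5 (0.98 to 3.33) and Nr3c2 (0.43 to 2.27) lie above 0, those of Crhr1 and Nr3c1 are narrow and span 0, and those of Crh and Crhbp are wide.

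No member passed both thresholds in edgeR, which were an adjusted p no higher than 0.05 with a log2 fold change past 0.6, where 0.00585% of all tested genes did (1 gene, Ptgdr, named after its value was seen). At an unadjusted p under 0.05, edgeR gave 2 of the 7 members tested, Nr3c2 and Fkbp5, both higher in withdrawn mice, beside 7.22% of all tested genes in either direction, 5.00% that were higher and 2.22% that were lower. The 7 passed the filter partly through the mice in which they were high, so this share is a description. DESeq2 called 1 member, Fkbp5, beside 1.66% of the genes with an adjusted p, 1.57% of them higher in withdrawn mice, and at an unadjusted p under 0.05 it gave 3 members, Crhbp with the other two, beside 6.24% of genes. The voom test of limma called none and gave 2 members at an unadjusted p under 0.05, beside 8.75% of genes. The median log2 fold change of the 7 members was −0.05, against 0.02 for all tested genes. For no member was every withdrawn mouse above every naïve mouse, which was so for 0.690% of the tested genes, or below, which was so for 0.257%.

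The levels of both corticosteroid receptor genes were then compared inside each library, as the ratio of Nr3c1 to Nr3c2 in counts per kilobase of exon, a measure that needs no scaling between libraries. The ratio was 4.89, 6.83, 9.96, 7.07, 9.47 and 5.00 in naïve mice 1 to 6 and 1.85, 4.18, 3.28, 2.29 and 3.08 in withdrawn mice 1 to 5. Every withdrawn mouse was below every naïve mouse, mouse 2 included. In withdrawn mouse 2 Nr3c1 (44.10 CPM) was the lowest of all mice, and Nr3c2 (8.84 CPM) was inside the naïve range. In the other withdrawn mice Nr3c2 was above every naïve mouse. On the log2 scale the ratio was 2.79 ± 0.44 in naïve mice (SD, n = 6) against 1.50 ± 0.46 after withdrawal (SD, n = 5), a difference of −1.30 (two-sided exact permutation test, p = 0.00216, the smallest p that these group sizes allow). When Nr3c1 was set against each of the other 17092 tested genes in the same way, 1.26% of them gave a ratio that was lower in every withdrawn mouse, and since Nr3c2 and Nr3c1 were chosen with earlier results known this p is not adjusted for that choice. Without the 3 mice with conflicting labels the difference was −1.32 (exact permutation test, p = 0.0357, the smallest p that 2 against 6 mice allow). Without naïve mouse 5 and withdrawn mice 2 and 4, left out after seeing the data, it was −1.30 (exact permutation test, p = 0.0179).

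**Figure D3:**
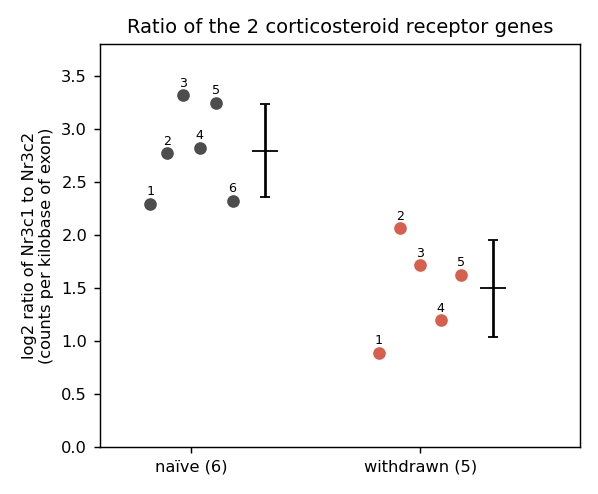
Log2 ratio of Nr3c1 to Nr3c2 in counts per kilobase of exon (vertical axis) in 6 naïve and 5 withdrawn mice. Points are single mice and bars are group means with the SD. All withdrawn mice, 0.89 to 2.06, lie below all naïve mice, 2.29 to 3.32.

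The summed level of markers of other cells was set beside Nr3c2 and Fkbp5 in each mouse. The 55 non-neuronal markers summed to 799, 990, 492, 440, 201 and 1358 CPM in naïve mice 1 to 6 and to 2322, 343, 1504, 2777 and 783 CPM in withdrawn mice 1 to 5. The 6 naïve mice had the same order in Nr3c2 as in this sum, and withdrawn mouse 2, with a low sum, had a low level of Nr3c2 as well. Withdrawn mouse 5 had a sum close to that of naïve mouse 1 (783 and 799 CPM) and a higher level of Nr3c2 (27.52 and 11.49 CPM). The sums of these mice differed in make-up. Endothelial markers gave 68.3 CPM in withdrawn mouse 5 and 534 CPM in naïve mouse 1. Fibroblast markers gave 230 and 5.58 CPM in the same mice, and astrocyte markers 245 and 71.2 CPM. Fkbp5 did not have the order of the sum among naïve mice, and its highest naïve value, in mouse 4, went with the second lowest sum of that group. With the logarithm of the sum as a covariate in edgeR, the log2 fold change of Nr3c2 fell from 1.35 to 0.59 and that of Fkbp5 from 2.16 to 1.19, each with an edgeR adjusted p = 0.911. The difference in the log2 ratio of Nr3c1 to Nr3c2 was −0.96 with this covariate, given without a test.

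Within that sum, 10 fibroblast markers reached 19.5 to 1320 CPM in withdrawn mice against 0.0677 to 74.7 CPM in naïve mice, with 4 of 5 withdrawn mice above all naïve mice (exact permutation test, two-sided, p = 0.0260, not adjusted over the 10 marker sums compared). Col1a1, a collagen gene of fibroblasts, had 377.6, 3.02, 151.1, 224.5 and 70.0 CPM in withdrawn mice 1 to 5 and at most 16.5 CPM in naïve mice. With Col1a2 and Ogn it made up most of the fibroblast sum in withdrawn mice 1, 3, 4 and 5. All 7 fibroblast markers that passed the low-count filter had a log2 fold change above 0. Lum and Igf2, which did not pass it, had lower means in withdrawn mice. Lum averaged 0.910 CPM in withdrawn and 1.36 CPM in naïve mice, and Igf2 0.0916 and 0.468 CPM. Whether fibroblasts were the source of the sum was not tested. The 8 astrocyte markers summed to 24.0 to 733 CPM in withdrawn and 14.5 to 203 CPM in naïve mice (exact permutation test, p = 0.0801). That sum was carried by the connexin genes Gja1 and Gjb6, at 308.9 and 328.3 CPM in withdrawn mouse 1, while Aqp4, the water channel that defines astrocytes, had 0.144, 0, 0, 7.99 and 0.212 CPM in withdrawn mice 1 to 5. Withdrawn mouse 2 had fibroblast and astrocyte sums inside the naïve range, Nr3c2 and Fkbp5 inside the naïve range, and a receptor ratio of 4.18 that was still below the lowest naïve value of 4.89. Which share of Nr3c2 and Fkbp5 came from such cells was not tested.

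**Figure D4:**
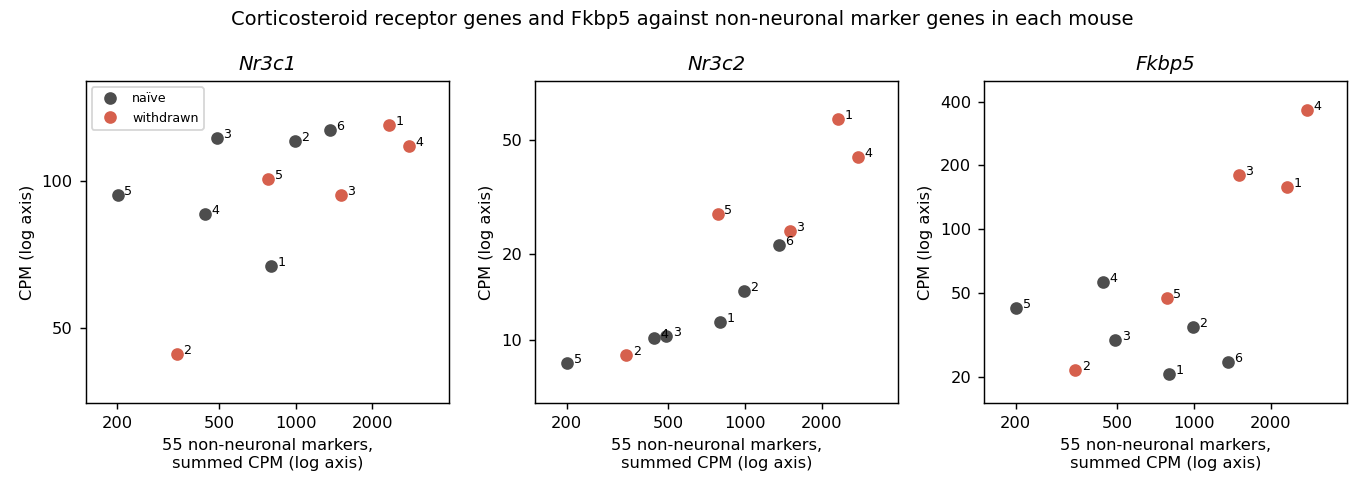
Level in CPM of Nr3c1, Nr3c2 and Fkbp5 (vertical, log axis) against the summed CPM of 55 non-neuronal markers (horizontal, log axis), with 1 numbered point for each of the 6 naïve and 5 withdrawn mice. Nr3c2 is ordered with the sum among naïve mice. Withdrawn mouse 5 lies above naïve mice with a like sum in Nr3c2, although the sum of naïve mouse 1 differed in make-up. The 3 highest values of Fkbp5 belong to the 3 withdrawn mice with the highest sums.

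The wider pathway was described with 6 gene lists, none of which contains a member. For the list counts at an unadjusted p under 0.05 below, the share over all genes was 7.22% in edgeR (5.00% higher and 2.22% lower). That share was 6.24% in DESeq2 and 8.75% in voom. In edgeR and in limma voom no gene of these lists passed the thresholds, and DESeq2 without covariates called none, beside 0.00585% of tested genes called by edgeR, the same share called by voom and 1.66% called by DESeq2. Peptides and receptors related to CRF and the hypothalamic-pituitary-adrenal axis were little expressed, since 5 of 11 passed the filter, and 1 of these was higher and 4 lower, with a median log2 fold change of −0.48. Without the 3 mice with conflicting labels 3 were higher and 2 lower with a median of 0.16, with the replicate block the median was −0.02, and with 1 mouse left out it lay between −0.56 and −0.06 (without naïve mouse 6). At an unadjusted p under 0.05, edgeR gave 1 of the 5 and neither DESeq2 nor voom gave any. Adcyap1, the gene of the neuropeptide PACAP and the highest of the list per length, averaged 80.3 ± 25.3 CPM in naïve mice (SD, n = 6) against 50.9 ± 18.5 CPM after withdrawal (SD, n = 5), a log2 fold change of −0.65 at an adjusted p = 0.690 from edgeR. Its receptor gene Adcyap1r1 had a log2 fold change of −0.15, and Oxt, for oxytocin, one of 0.97 at no more than 42 counts per mouse.

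The signalling partners of CRF1 (G proteins, adenylyl cyclases, protein kinase A subunits, arrestins and kinases) were all expressed, with 30 of 30 tested, 9 higher and 21 lower and a median log2 fold change of −0.12, which was −0.05 without withdrawn mouse 4. Only Gnaq, the alpha subunit that couples receptors to phospholipase C, had an unadjusted p under 0.05 in edgeR, as 1 gene did in DESeq2 and none in voom. It averaged 245.3 ± 37.9 CPM in naïve mice (SD, n = 6) against 189.3 ± 26.1 CPM after withdrawal (SD, n = 5), with a log2 fold change of −0.37 and an adjusted p = 0.567 from edgeR. Prkaca, the catalytic subunit of protein kinase A, had a log2 fold change of −0.33, and Grk2, the kinase that desensitizes such receptors, one of −0.39. Prkar1b, a regulatory subunit of the same kinase and the highest of the list per length, had one of −0.14.

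All 16 chaperones of the corticosteroid receptors were tested and all 16 had a log2 fold change below 0, between −0.62 and −0.03 with a median of −0.25, beside 51.8% of all tested genes that were above 0. The count was the same with DESeq2 size factors and with TMMwsp, was 14 with voom and 12 with the non-neuronal covariate, and was 9 without naïve mouse 5 and withdrawn mice 2 and 4. Without naïve mouse 5 alone, which had the highest level of each of the named chaperones, it was 13, with a median of −0.15. Without withdrawn mouse 1 or 4 it was 14. At an unadjusted p under 0.05, edgeR gave 3 of them, DESeq2 2 and voom 3, beside 7.22%, 6.24% and 8.75% of all genes. Ahsa1, which activates Hsp90, averaged 168.1 ± 53.5 CPM in naïve mice (SD, n = 6) against 109.5 ± 30.0 CPM after withdrawal (SD, n = 5), with an adjusted p = 0.521 from edgeR. Hspa8, a constitutive Hsp70, had a log2 fold change of −0.48, Bag1, its nucleotide exchange factor, one of −0.42, and Hsp90ab1, the highest of the list per length, one of −0.29.

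The 16 coregulators of the receptors, all tested, had 7 genes higher and 9 lower with a median log2 fold change of −0.04, and 9 higher and 7 lower with a median of 0.09 without naïve mouse 1. Ncoa3, a coactivator of nuclear receptors, averaged 44.6 ± 6.75 CPM in naïve mice (SD, n = 6) against 65.6 ± 22.9 CPM after withdrawal (SD, n = 5), with a log2 fold change of 0.56 and an adjusted p = 0.618 from edgeR, and was the only one with an unadjusted p under 0.05 in that test, against 1 gene in DESeq2 and 4 in voom. Ncoa2, a coactivator of the same family, had a log2 fold change of −0.47, Carm1, an arginine methyltransferase, one of −0.95, and Hdac2, a histone deacetylase and the highest of the list per length, one of −0.18.

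Among 28 genes known to be induced by glucocorticoids, 27 were tested, 18 were higher and 9 lower, with a median log2 fold change of 0.24, which was 0.07 without withdrawn mouse 4 and 0.40 without withdrawn mouse 2. With the non-neuronal covariate 11 were higher and 16 lower, with a median of −0.06, and without naïve mouse 5 and withdrawn mice 2 and 4 these counts were 13 and 14. At an unadjusted p under 0.05, edgeR gave 4 of them, all higher, DESeq2 5 and voom 3. The shares over all genes were 7.22% in edgeR (5.00% higher), 6.24% in DESeq2 and 8.75% in voom. Tsc22d3, which encodes the anti-inflammatory protein GILZ, had 73.7, 83.2, 50.5, 52.1, 93.7 and 74.3 CPM in naïve mice 1 to 6 and 182.7, 56.5, 151.1, 251.3 and 119.8 CPM in withdrawn mice 1 to 5. Again 4 of 5 withdrawn mice were above all naïve mice, and mouse 2 was not. Its log2 fold change was 1.09 (standard error 0.30) with an adjusted p = 0.265 from edgeR and 0.0750 from DESeq2, and without withdrawn mouse 2 edgeR gave 1.28 with an adjusted p = 0.0200.

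Sult1a1, a sulfotransferase, had a log2 fold change of 3.06 and Angptl4, an inhibitor of lipoprotein lipase, one of 3.48, with adjusted p-values of 0.473 and 0.560 from edgeR. Both were at 0 in naïve mouse 5 and withdrawn mouse 2 and highest in withdrawn mouse 4 (90.6 and 74.6 CPM), the mouse with the highest non-neuronal sum. Without naïve mouse 5 and withdrawn mice 2 and 4, Sult1a1 had a log2 fold change of 2.65 at an adjusted p = 0.0173 from edgeR. Dusp1, a phosphatase of MAP kinases named after its values were seen, had a log2 fold change of 0.73, and Mt1, a metallothionein and the highest of the list per length, one of 0.31. Sgk1, Per1 and Cdkn1a of the same list, also named after their values were seen, overlapped between the groups. Sgk1 had 29.4 to 69.4 CPM in naïve and 36.2 to 54.2 CPM in withdrawn mice. Per1 had 18.4 to 63.7 and 23.1 to 65.4 CPM, and Cdkn1a 118.5 to 279.4 and 114.1 to 179.7 CPM.

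Of 15 genes of corticosteroid metabolism and transport, 14 were found in the files and 9 were tested, with 6 higher and 3 lower and a median log2 fold change of 0.41. This direction was not stable, since 4 were higher and 5 lower with a median of −0.07 under the non-neuronal covariate, and without withdrawn mouse 2 the counts were 5 and 5 with a median of 0.03. Abcb1a, an efflux pump of the blood-brain barrier that limits the entry of corticosteroids, averaged 11.4 ± 12.5 CPM in naïve mice (SD, n = 6) against 80.5 ± 68.5 CPM after withdrawal (SD, n = 5), with a log2 fold change of 2.82 and an adjusted p = 0.634 from edgeR. It was the only gene of the list at an unadjusted p under 0.05 in edgeR, with 1 such gene in DESeq2 and none in voom, and it too was at 0 in naïve mouse 5 and withdrawn mouse 2. Its paralogue Abcb1b had a log2 fold change of 1.69, Tspo, a mitochondrial outer membrane protein, one of 1.47, and Hsd17b10, a mitochondrial dehydrogenase and the highest of the list per length, one of −0.03. Reads of Abcb1a and Abcb1b may be shared between these like sequences, so the level of each is uncertain.

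**Figure D5:**
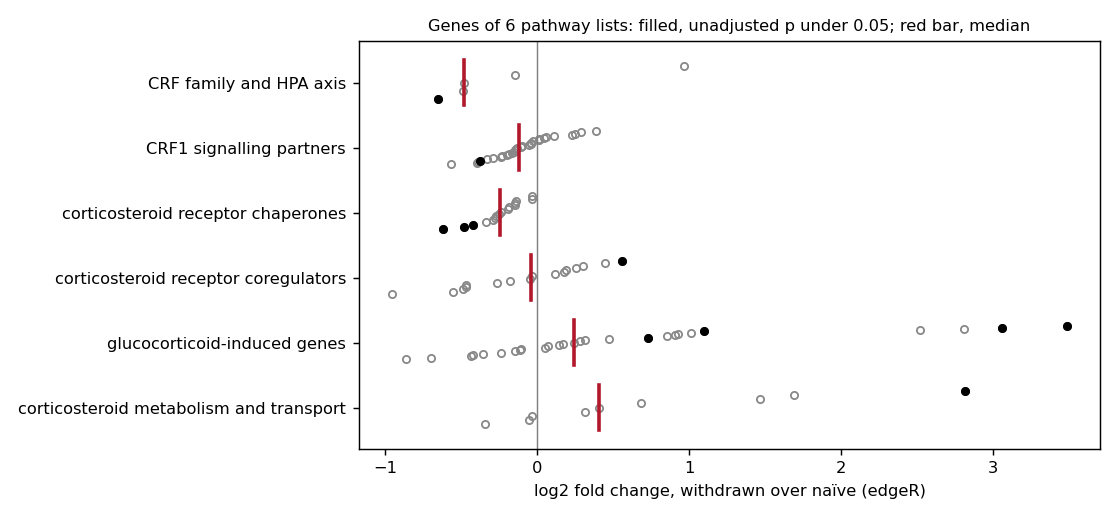
Log2 fold change of withdrawn over naïve mice by edgeR (horizontal axis) for the tested genes of the 6 pathway lists, with 1 point per gene, filled where the unadjusted p was under 0.05, and a red bar at the median. All 16 chaperones lie below 0, and the 4 filled points among the glucocorticoid-induced genes lie above 0.

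Profiles over the 11 mice were compared by the root mean square difference between log2 CPM values scaled to mean 0 and SD 1, in which 0 is identity. Nearest to Nr3c2 among 17092 other tested genes were Cavin1 (0.226), which encodes a coat protein of caveolae, the histone gene Hist1h2bc (0.239) and Ada (0.248), for adenosine deaminase, where the median gene was at 1.27. Nearest to Fkbp5 were the coactivator gene Ncoa3 (0.268), Serp1 (0.327) and Dab2 (0.344), with a median gene at 1.31. Fkbp5 and Nr3c2 were at 0.688 from each other, so that Nr3c2 was rank 383 among the neighbours of Fkbp5 and Fkbp5 was rank 673 among those of Nr3c2. Nearest to Nr3c1 were Kcnab3 (0.269), a subunit of potassium channels, Rgs3 (0.286), a regulator of G protein signalling, and 1700029J07Rik (0.318). Nearest to Crhr1 were Cpne9 (0.411), 4930539E08Rik (0.417) and Unc119b (0.458), which are farther than the neighbours of the other 3 genes. These distances share their libraries and their normalization and are a description of 11 mice.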

How the data were processed

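RNA of GFP-positive mPFC cells was sequenced from 6 naïve and 5 withdrawn mice. The authors trimmed reads with cutadapt, aligned them to GRCm38 with STAR and tallied reads on genes of Ensembl release 91 with HTSeq. The deposited values are raw counts, with 1 library per mouse. Gene names, gene bounds and exon lengths were taken from a GENCODE annotation of GRCm38, which is not the release used for counting. The strand setting is not given in the sources used here. Entries that name no gene (reads outside exons, ambiguous or unplaced) were 18.9% to 58.0% of the reads tallied and stayed out of library sizes and tests. Levels are TMM-normalized CPM (log2 CPM with 2 as the prior count). Groups were compared with edgeR 4.0.16 in R 4.3.3 (filterByExpr with minima of 10 counts and 15 in total, quasi-likelihood test, Benjamini-Hochberg adjustment over 17093 genes). Calls needed an adjusted p no higher than 0.05 with a log2 fold change past 0.6. DESeq2 1.42.0 (all genes with at least 1 count) and limma 3.58.1 (voom with quality weights) were alternatives, with other normalizations and filters, a replicate block, covariates and left-out mice. The receptor ratio added 0.5 counts to each gene. Members under the filter and the ratio were compared with exact permutation tests. The tests were tested on simulated data.

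All 9 members were named, and from each pathway list the genes past the thresholds, up to 3 with the smallest unadjusted p and the highest per length in naïve mice. For Crhr1, Nr3c1, Nr3c2 and Fkbp5, the 3 genes with the nearest profile were named. Members, gene lists and marker lists were chosen with earlier results of these data known. Same-numbered mice of the groups are different animals. The lowest chi-square per degree of freedom between libraries was 25.6, so no library was a copy of another.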

Additional observations from a re-analysis of the deposited data

Results flagged for a closer look

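In 20 groups of mice, each with the log2 CPM of 1 member or the log2 receptor ratio, the highest or lowest mouse was compared with the range of its group by Dixon's test, which flags about 1 in 20 groups by chance. Both flagged values belong to Ucn, and both are single mice with counts in a group of mice without any. Naïve mouse 2 had a log2 CPM of −1.26 for Ucn, from 5 counts, and withdrawn mouse 4 had 1.45, from 21 counts.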

How the results depend on the processing

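edgeR called 1 of all tested genes. This count was 362 in DESeq2, 137 without a low-count filter, 30 with at least 10 counts in every mouse, and 0 with the replicate block, without the 3 mice with conflicting labels and with the non-neuronal covariate. It was 0 to 193 with 1 mouse left out, and 193 without withdrawn mouse 2. In settings chosen after seeing the data it was 0 with the share of reads outside exons as covariate, 211 with that covariate in DESeq2, 133 with the non-neuronal covariate in DESeq2, and 168 without naïve mouse 5 and withdrawn mice 2 and 4. Members called were 0 in edgeR, 1 in DESeq2 and 1 without a filter (both Fkbp5), 0 to 1 with 1 mouse left out (Fkbp5, without withdrawn mouse 2), 1 in DESeq2 with the non-neuronal covariate (Crhbp), and 0 in DESeq2 with the share of reads outside exons. Genes of the pathway lists called were 0 in edgeR, 0 to 1 with 1 mouse left out, 1 in DESeq2 with the non-neuronal covariate (Ppargc1a), and 2 without naïve mouse 5 and withdrawn mice 2 and 4 (Sult1a1 and Tsc22d3). The log2 fold changes of Fkbp5 and Nr3c2 stayed above 0 and that of Crhbp below 0 in all settings in which they had a value.

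Numbers were not used as pairs in the main test. Same-numbered mice are different animals, and their deviations correlated between −0.200 and 0.182 over genes, with the own number best in 1 of 5 pairs. Whether same-numbered mice shared a batch was not tested. With the replicate block the log2 fold change of Fkbp5 was 1.60 with an adjusted p = 0.802 from edgeR, and the receptor ratio differed by −1.39 (exact permutation test within pairs, p = 0.0625, the smallest p that 5 pairs allow). With 1 mouse left out the ratio differed by −1.44 to −1.15.

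Small or uncertain log2 fold changes turned sign. Crh turned to −1.27 with voom, −1.19 with the replicate block, −0.04 without naïve mouse 1, −0.06 without naïve mouse 6 and −1.10 without withdrawn mouse 2, with 1.01 as the highest value with 1 mouse left out. Crhr1 turned to 0.29 without the 3 mice with conflicting labels, 0.12 with the non-neuronal covariate and 0.15 with it in DESeq2, 0.034 with the share of reads outside exons and 0.050 with it in DESeq2, 0.20 without naïve mouse 5 and withdrawn mice 2 and 4, and 0.01 to 0.12 without naïve mouse 3, naïve mouse 5 or withdrawn mouse 4. Nr3c1 turned to 0.091 without withdrawn mouse 2 (range −0.22 to 0.091 with 1 mouse left out) and 0.052 without naïve mouse 5 and withdrawn mice 2 and 4. Hsd11b1 turned to 0.49 with voom, 0.10 with the non-neuronal covariate and 0.13 with it in DESeq2, 0.18 without naïve mouse 1 and 0.05 without withdrawn mouse 3, with −0.59 as the lowest value with 1 mouse left out. The log2 CPM difference of Ucn turned to −0.26 without withdrawn mouse 4 and without the 3 mice with conflicting labels, and was at most 0.85 with 1 mouse left out. The cause of these changes was not tested. Few counts limit Ucn and Crhr2. Ucn had no count in most mice, and Crhr2 had at most 18 counts in every mouse except naïve mouse 6. Whether depth or the amount of RNA set this limit was not tested.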
